A study of Mus musculus with 32 samples.

Results

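Histone H3 trimethylated at lysine 4 (H3K4me3) was examined at the regions that lay far from annotated transcription start sites (TSS) in *Kat2a* WT and *Kat2a* KO MLL-AF9 leukemia. Peaks of both H3K4me3 replicates of a genotype were merged where they overlapped by at least 1 bp, and merged regions holding a peak of each replicate were taken as consensus regions. A consensus region was called distal when its centre lay more than 5 kb from the TSS of every transcript in GENCODE M21 (mm10). By this rule, 592 of 12641 consensus regions were distal in WT and 681 of 13779 in KO. The peak lists also hold peaks with a q-value above 0.05, and without those 497 WT and 557 KO regions were distal. Joined across the genotypes, the 592 and 681 regions formed 880 distal sites. The presence of H3K4me3 and the distance to a TSS chose these regions, so both are given as descriptions and without a test: the members were selected on the peak calls of the 4 H3K4me3 libraries.

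The leukemias came from mice homozygous for a *Kat2a* Flox allele, with Mx1-Cre absent (−/−, WT) or present (+/−, KO). Mx1-Cre is an interferon-inducible recombinase, and both genotypes received pIpC, the synthetic double-stranded RNA that induces it. Lineage-depleted bone marrow was transduced with a retrovirus carrying the MLL-AF9 fusion and transplanted into lethally irradiated mice, and marrow was collected at terminal leukemia. Cells of 5 WT and of 4 KO animals were pooled. Each mark was profiled in 2 replicates per genotype (R1 and R2) by chromatin immunoprecipitation and sequencing, with 5000000 cells for H3K4me3 and H3K9ac and 500000 for H3K27ac and H3K4me1. Since R1 and R2 of a genotype were drawn from 1 pool, they say nothing of how single animals varied.

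H3K4me3 is deposited by the SET1 and MLL methyltransferase complexes and is best known from active promoters, where CpG islands attract the CXXC-domain proteins of these complexes. Away from annotated genes it can mark unannotated promoters, CpG islands without a known transcript, strongly active enhancers and the flanks of tRNA genes read by RNA polymerase III. H3K9ac and H3K27ac mark active promoters and enhancers, and H3K4me1 is typical of enhancers. Kat2a is the acetyltransferase of the SAGA and ATAC complexes and acetylates H3K9.

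Windows of 200 bases around the H3K4me3 summit are shown for 5 sites because they differ widely in CpG content. They are the mm10 plus strand, read from the RefSeq GRCm38.p6 assembly, with every CG dinucleotide in capitals. The first 3 sites were among the strongest in both genotypes, the fourth had no H3K4me3 peak in KO and the last had none in WT. The names give the nearest protein-coding gene.
*Chd2* site, chr7:73618072-73618271, 17 CG: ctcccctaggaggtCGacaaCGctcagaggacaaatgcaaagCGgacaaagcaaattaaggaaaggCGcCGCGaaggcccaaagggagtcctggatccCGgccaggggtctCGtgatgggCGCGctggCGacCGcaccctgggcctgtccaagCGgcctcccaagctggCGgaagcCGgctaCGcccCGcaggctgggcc
*Nufip1* site, chr14:76152331-76152530, 12 CG: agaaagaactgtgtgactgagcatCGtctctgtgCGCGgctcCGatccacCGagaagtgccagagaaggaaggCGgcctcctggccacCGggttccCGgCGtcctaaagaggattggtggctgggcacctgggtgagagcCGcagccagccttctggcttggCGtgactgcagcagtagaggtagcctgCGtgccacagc
*Meis1* site, chr11:19026841-19027040, 9 CG: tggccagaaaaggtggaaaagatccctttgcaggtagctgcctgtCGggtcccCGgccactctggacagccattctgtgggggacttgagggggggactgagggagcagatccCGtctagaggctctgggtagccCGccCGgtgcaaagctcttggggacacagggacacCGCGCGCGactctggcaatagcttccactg
*Elf2* site, chr3:51333130-51333329, 3 CG: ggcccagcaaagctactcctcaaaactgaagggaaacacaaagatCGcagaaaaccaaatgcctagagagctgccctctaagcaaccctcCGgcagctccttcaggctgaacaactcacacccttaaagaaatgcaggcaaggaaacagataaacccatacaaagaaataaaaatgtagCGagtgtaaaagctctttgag
*Cdc14a* site, chr3:116436869-116437068, 4 CG: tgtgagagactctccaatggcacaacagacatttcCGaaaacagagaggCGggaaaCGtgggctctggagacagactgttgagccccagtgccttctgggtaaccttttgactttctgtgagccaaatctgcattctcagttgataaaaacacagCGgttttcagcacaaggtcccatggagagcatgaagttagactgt
The window of the *Chd2* site held 17 CG, and those of the *Elf2* and *Cdc14a* sites held 3 and 4. Among windows not printed, a site near *Arid1b* without a WT peak held 18 CG. One near *1700012B07Rik* without a KO peak held 6. Of sites strong in both genotypes, a second site near *Chd2* held 7 and one near *Spag6* held 23. A high CG count was thus not limited to sites strong in both genotypes. The median over all distal regions was 7 CG in each genotype, against 15 at TSS-proximal regions.

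The leukemia label was compared with H3K4me3 at the TSS of marker genes. Of 8 myeloid and leukemia markers, 6 had H3K4me3 in WT and 7 in KO, with *Ptprc*, *Spi1*, *Cebpa*, *Csf1r*, *Csf3r* and *Kit* marked in both. *Mpo*, which encodes a neutrophil granule enzyme, was unmarked in both. None of 3 megakaryocyte and 4 stromal or endothelial markers was marked in either genotype, and 1 of 6 B cell markers (*Cd79b*) was marked in both. T cell markers were marked at 0 of 7 genes in WT and 2 of 7 in KO (*Tcf7* and *Lck*), and erythroid markers at 1 of 5 and 3 of 5. The part of other cell types in the differences below was not tested. At the *Kat2a* promoter, H3K4me3 was enriched 6.50-fold and 3.52-fold over input in the WT libraries and 6.36-fold and 10.8-fold in KO. This promoter signal does not report on the floxed exons. Replicate 1 of H3K27ac and of H3K4me1 had median peak widths of 48 to 49 bp and at most 0.0485% of peaks with a q-value of 0.05 or less, so only replicate 2 of these marks was used and their shares rest on 1 library per genotype.

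Distal regions were narrower and less enriched than TSS-proximal regions. Their median width was 740 bp in WT (5th to 95th percentile 387 to 1670) and 633 bp in KO (346 to 1377), against 1066 and 950 bp at proximal regions. The median fold enrichment of H3K4me3 over input at the summit was 5.01 in WT R1, 3.96 in WT R2, 3.90 in KO R1 and 4.18 in KO R2. The medians at proximal regions in these libraries were 8.27, 5.37, 5.56 and 6.77. The median distance to the nearest TSS was 12308 bp in WT and 13301 bp in KO, and 37.0% of WT and 33.2% of KO distal regions lay within 10000 bp of one. The 2 WT regions just beyond it lay 5010.5 bp and 5020.5 bp from a TSS, the latter in *Mef2c*, and were enriched 7.48-fold and 7.23-fold in R1 and 3.47-fold and 4.82-fold in R2. The 2 just within it, at 4967 bp and 4954 bp, were enriched 4.01-fold and 3.62-fold in R1 and 3.48-fold and 3.79-fold in R2. In KO, the 2 just beyond it, at 5010 bp and 5012.5 bp, were enriched 3.40-fold and 3.25-fold in R1 and 2.33-fold and 4.50-fold in R2, and the 2 just within it, at 4985 bp and 4978 bp, 4.57-fold and 3.77-fold in R1 and 4.85-fold and 3.32-fold in R2.

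Distal peaks of single libraries were found again in the other replicate less often than proximal peaks. WT R1 held 4159 distal peaks and WT R2 1003, and KO R1 held 3379 and KO R2 2347. Only 14.7% of the distal WT R1 peaks and 64.1% of those in WT R2 overlapped a peak of the other replicate, against 64.7% and 97.4% at proximal peaks. In KO these shares were 21.5% (R1) and 30.5% (R2) for distal peaks and 86.6% and 81.2% for proximal peaks.

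Most distal regions were intergenic. In WT, 339 of 592 (57.3%, 95% Wilson interval 53.2 to 61.2) had their centre outside every GENCODE gene, 199 (33.6%) in an intron and 54 (9.12%) in an exon. In KO, 401 of 681 (58.9%, 55.1 to 62.5) were intergenic, 225 (33.0%) intronic and 55 (8.08%) exonic. At proximal regions 11.1% (WT) and 12.02% (KO) were intergenic, a difference that follows in part from the rule, since a TSS lies at the edge of a gene. The first intron of a host transcript held 97 WT (16.4%) and 111 KO (16.3%) distal regions. Of the 880 sites, 333 lay in a protein-coding gene and 25 in a lincRNA gene.

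Few distal regions lay close to a marked promoter, and most sites lay more than 50 kb from the next. Within 5 kb of a proximal H3K4me3 region lay 35 WT regions (5.91%) and 34 KO regions (4.99%), and the median gap was 32549 bp and 31878 bp. The low shares follow largely from the rule. It keeps distal centres more than 5 kb from every TSS, and most proximal regions lie close to one. When sites with gaps of up to 50 kb were joined, 655 of 880 stood alone and 36 fell into 7 clusters of 4 or more. The rest lay in smaller groups, and the spacing was not compared with that of proximal regions. The largest cluster held 7 sites on chr13:21159170-21276426, of which 6 lay within 1 kb of a tRNA gene. A cluster of 6 sites on chr15:85625615-85674821 covered *Lncppara*, a long non-coding RNA gene between *Wnt7b* and *Ppara*. A cluster of 4 sites on chrX:12086582-12137614 had *Bcor* as the nearest protein-coding gene. *Bcor* encodes a BCL6 corepressor of a Polycomb complex and had 7 sites in all, the most of any nearest protein-coding gene.

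At the strongest sites present in both genotypes, H3K4me3 was high in all 4 libraries. The *Spag6* site (chromosome 2, intergenic, 67593 bp from *Spag6*, which encodes a protein of the sperm axoneme) had fold enrichments of 11.0 and 9.16 in WT R1 and R2 and of 9.82 and 9.76 in KO. A second strong site on the same chromosome (chr2:18607523-18610060, 63592.5 bp from *Commd3*) had 8.67 and 9.34 in WT and 6.38 and 9.34 in KO. The WT and KO values overlapped at the second site. At the first, KO values lay between the WT values.

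Near *Chd2*, which encodes a chromatin remodeler, 2 neighbouring sites lay on chr7:73616775-73618441 and chr7:73618573-73619530, with centres 75778 bp and 77221.5 bp from its TSS. Enrichment at the first was 9.75 and 7.27 in WT and 9.49 and 12.02 in KO, and at the second 9.32 and 7.00 in WT and 9.998 and 7.38 in KO. One wide H3K9ac peak covered both, with enrichments of 22.2 and 19.7 in WT R1 and R2 and 33.5 and 36.0 in KO, so both KO libraries exceeded both WT libraries there. H3K9ac at the pair is a single measurement.

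The *Meis1* site (chr11:19025937-19027856) lay 7912 bp from the TSS of *Meis1*, the homeobox gene required by MLL-AF9 leukemia. Its H3K4me3 enrichment was 9.91 and 8.53 in WT and 6.36 and 12.2 in KO. The KO libraries lay on either side of the WT libraries. Its H3K9ac enrichment was 10.8 and 24.1 in WT and 12.2 and 16.7 in KO, again overlapping.

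The *Ezh2* site (chr6:47650743-47651747), 55904 bp from the gene of the Polycomb methyltransferase, had H3K4me3 enrichments of 6.02 and 7.27 in WT and 6.86 and 7.43 in KO. The site on chr7:120830410-120831500, 11876 bp from *Eef2k*, which encodes the kinase of elongation factor 2, lay in an exon of the predicted gene *Gm5737* and had 8.11 and 6.72 in WT and 6.54 and 7.10 in KO. The genotypes overlapped at both. The site near *Nufip1* (chr14:76152008-76153397) held a tRNA gene and is described with the other tRNA sites.

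**Figure D1:**
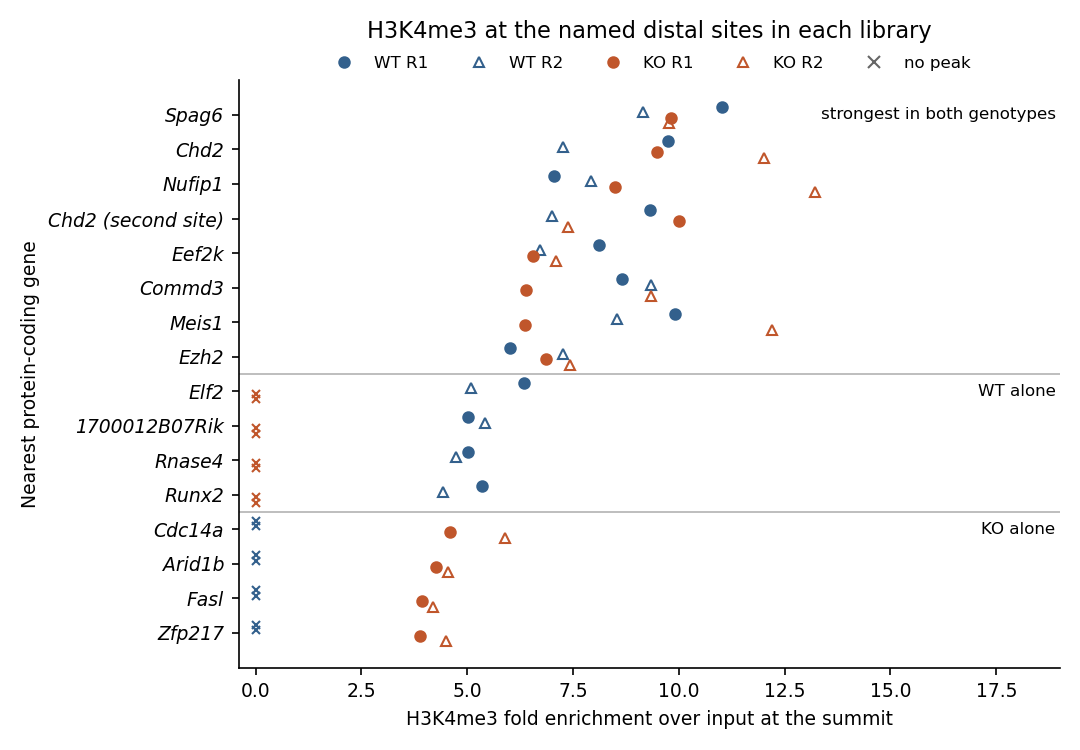
H3K4me3 fold enrichment over input at the peak summit (x axis) in WT R1, WT R2, KO R1 and KO R2 for 16 distal sites, named by the nearest protein-coding gene (y axis), where a cross at 0 stands for no peak. The upper 8 sites were chosen as the strongest in both genotypes and reach 13.2, and the lower 8 were chosen for having no peak in one genotype and stay at or below 6.35.

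The widest distal region of WT lay in an intron of *Akap13*, which encodes an anchoring protein of protein kinase A, and spanned 4669 bp in WT and 2545 bp in KO. H3K4me3 at this site was 8.33 and 3.17 in WT and 7.82 and 4.10 in KO. The widest region of KO lay in the first intron of *Lncppara* and spanned 3363 bp, against 3863 bp in WT. The third widest of WT, 3265 bp, lay in an intron of *Tbc1d2*, and the third of KO, 2516 bp, was the site near *Commd3*.

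Sharing between genotypes was lower at distal than at proximal regions. Of the 592 distal WT regions, 379 (64.0%, 60.1 to 67.8) overlapped a consensus region of KO, against 91.7% of all WT consensus regions. Of the 681 distal KO regions, 390 (57.3%, 53.5 to 60.9) overlapped one of WT, against 86.2% of all KO consensus regions. Among merged sites, 368 were distal in both genotypes, 213 in WT without a KO consensus region, 291 in KO without a WT consensus region and 8 distal in one genotype with proximal H3K4me3 in the other. The presence of H3K4me3 chose the members, so these counts carry no test.

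Most sites counted in 1 genotype had a peak in a library of the other. Of the 213 WT sites, 72 had no peak in either KO library, 52 had one in KO R1 alone and 85 in KO R2 alone. A further 4 had a peak in each KO library, but these did not merge into 1 consensus region. Of the 291 KO sites, 51 had no peak in either WT library, 233 had one in WT R1 alone and 7 in WT R2 alone. WT R2 had the shortest H3K4me3 list, with 15685 peaks against 19517 to 23297 in the other libraries. With the 15685 strongest peaks kept in every library, distal consensus regions numbered 469 in WT and 432 in KO, so the larger number in KO was reversed. Sites not shared were also narrower, with median widths of 596 bp (WT) and 524 bp (KO) against 828 and 741 bp for shared regions, and weaker, with medians of 4.06 and 3.64 in WT R1 and R2 against 5.89 and 4.11.

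The strongest sites with no H3K4me3 peak in either KO library were weak beside those above. A site in the first intron of *Elf2*, which encodes an ETS family transcription factor (chr3:51333021-51333510), had 6.35 and 5.09 in WT. A site in an intron of *Runx2* (chr17:44545231-44545696) had 5.35 and 4.43, a site 32432.5 bp from *1700012B07Rik* 5.01 and 5.43, and one 7814 bp from *Rnase4* 5.01 and 4.74. H3K9ac was not absent from the *Elf2* site in KO: it was enriched 4.82-fold and 9.75-fold in WT and 6.56-fold and 8.29-fold in KO.

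The same held for the strongest sites with no WT peak. The site 12826 bp from *Cdc14a*, which encodes a phosphatase (chr3:116436558-116437158), had H3K4me3 enrichments of 4.58 and 5.89 in KO, and the site 86287.5 bp from *Arid1b*, which encodes a BAF chromatin remodeling subunit (chr17:4907889-4908200), had 4.25 and 4.54. The sites near *Fasl* and *Zfp217* had 3.93 and 4.19, and 3.88 and 4.50. At the *Arid1b* site H3K9ac was 14.5 and 9.36 in WT and 8.32 and 12.6 in KO, so acetylation was present where WT had no H3K4me3 peak and the genotypes overlapped.

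Distal H3K4me3 consensus regions were mostly acetylated. An H3K9ac consensus region overlapped 537 of 592 in WT (90.7%, 88.1 to 92.8) and 572 of 681 in KO (84.0%, 81.1 to 86.6), against 95.6% and 92.4% of all consensus regions. These shares depended on the demand for both replicates. With the union of replicates for both marks, they were 55.2% in WT and 31.9% in KO. Counted in single libraries on the regions of their own genotype, H3K9ac was present at 94.1% of distal and 97.9% of proximal regions in WT R1, 93.8% and 96.4% in WT R2, 87.5% and 93.8% in KO R1, and 89.7% and 95.5% in KO R2. The share was lower at distal regions in 4 of 4 libraries, on average by 4.64 points (SD 1.68, n = 4, two-sided exact sign-flip permutation test p = 0.12, the smallest that 4 libraries allow). Where a peak was present it was also less enriched, with medians of 5.55, 6.75, 5.13 and 6.55 at distal regions in WT R1, WT R2, KO R1 and KO R2 against 11.0, 11.3, 9.33 and 11.46 at proximal regions.

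H3K27ac R2 overlapped 362 distal regions in WT (61.1%, 57.2 to 65.0) and 529 in KO (77.7%, 74.4 to 80.6), against 80.1% and 88.6% of all consensus regions. H3K4me1 R2 overlapped 106 in WT (17.9%, 15.03 to 21.2) and 302 in KO (44.3%, 40.7 to 48.1), against 17.8% and 45.5%, so the shares at distal regions were close to those over all regions. The KO lists were longer for both marks, with 46047 against 29757 H3K27ac peaks and 78042 against 45770 H3K4me1 peaks. With peaks of q-value 0.05 or less alone, H3K4me1 overlapped 7.04% of distal regions in WT and 36.1% in KO. Genotype and library cannot be told apart for these marks.

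Combined, H3K9ac and H3K27ac were both present at 361 WT (61.0%) and 502 KO (73.7%) distal regions. H3K9ac without H3K27ac was found at 176 (29.7%) in WT and 70 (10.3%) in KO, and H3K27ac without H3K9ac at 1 and 27. Neither was found at 54 WT (9.12%) and 82 KO (12.04%) regions, and 13 and 26 of these carried H3K4me1. At proximal regions the share with neither was 4.03% in WT and 5.61% in KO. H3K9ac without H3K27ac was less frequent in KO there too, at 14.96% of proximal regions in WT and 5.21% in KO. Both acetylations were present at 80.9% of proximal regions in WT and 87.6% in KO, and H3K27ac alone at 0.124% and 1.53%. The fall in H3K9ac without H3K27ac was thus not particular to distal regions. The part of the longer KO H3K27ac list in it was not tested.

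**Figure D2:**
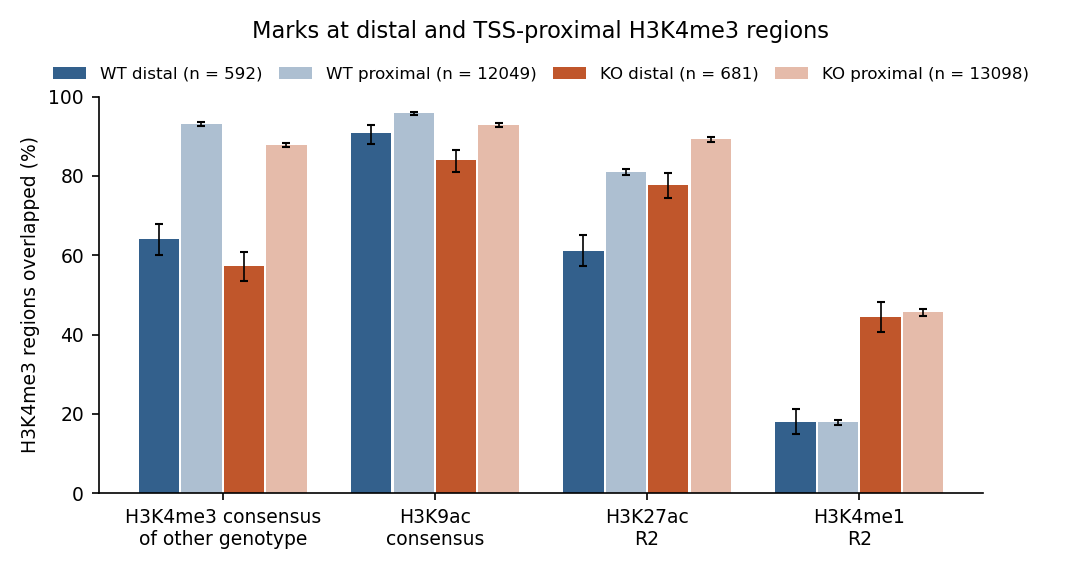
Percentage of distal and TSS-proximal H3K4me3 consensus regions (y axis) that overlapped the H3K4me3 consensus of the other genotype, the H3K9ac consensus, H3K27ac R2 or H3K4me1 R2 (x axis), in WT and KO, with 95% Wilson intervals as error bars. Distal bars are lower for H3K4me3 sharing, H3K9ac and H3K27ac, and the H3K4me1 bars are alike within a genotype (17.9% and 17.8% in WT, 44.3% and 45.6% in KO).

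Acetylation varied with sharing and location. In WT, H3K9ac overlapped 94.7% of 379 distal regions shared with KO, 85.8% of 141 with a peak in 1 KO library and 79.2% of 72 with none. In KO the same order held, with 92.6% of 390, 75.8% of 240 and 56.9% of 51. By location, H3K9ac in WT overlapped 89.4% of intergenic, 93.5% of intronic and 88.9% of exonic distal regions. In KO these shares were 85.0%, 86.2% and 67.3% (54.1 to 78.2 for the 55 exonic regions).

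To compare H3K9ac between the genotypes on the same regions, the 880 merged sites were set against each library. An H3K9ac peak was present at 93.1% of sites in WT R1, 92.6% in WT R2, 83.0% in KO R1 and 86.7% in KO R2. The KO libraries were lower than both WT libraries, by 8.01 points on average (WT 92.8% ± 0.321, KO 84.8% ± 2.65, SD, n = 2 each, two-sided exact permutation test p = 0.333, the smallest that 2 against 2 allows). The WT lists were longer, with 33605 and 31677 H3K9ac peaks against 27657 and 28861. With the same number of peaks in every library of a mark, the difference was −2.53 points. That setting also shortened the H3K4me3 lists, so its sites were another set than the 880. Within replicate numbers the difference at the 880 sites was −10.1 points (R1) and −5.91 points (R2). At the 368 sites distal in both genotypes it was −2.72 points, with 97.8%, 97.0%, 94.3% and 95.1% in the same order of libraries, and at 13299 merged proximal regions it was −2.42 points.

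**Figure D3:**
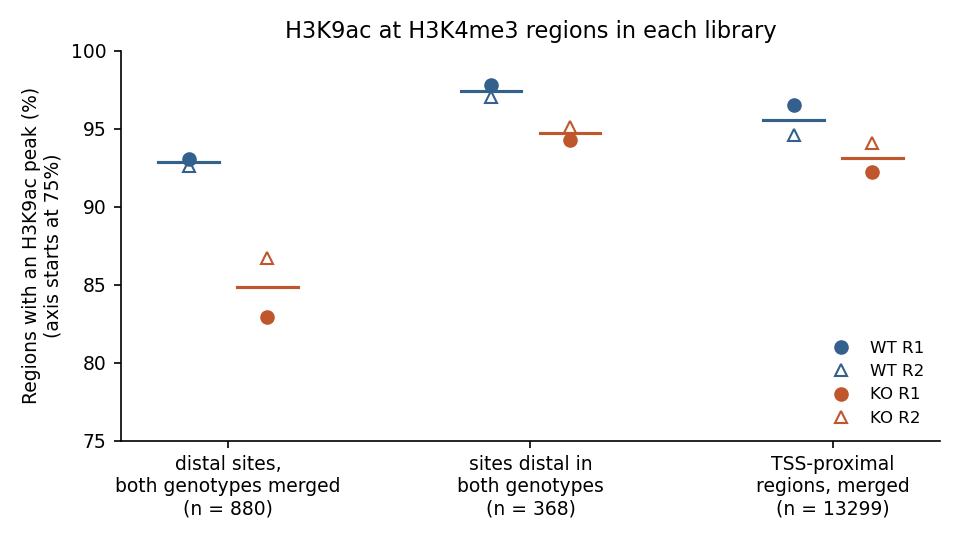
Percentage of regions with an H3K9ac peak (y axis, from 75 to 100) in each of the 4 H3K9ac libraries, for 880 merged distal sites, 368 sites distal in both genotypes and 13299 merged TSS-proximal regions (x axis), where lines are the means of 2 libraries. KO libraries lie below WT libraries in each set, with the widest gap at the merged distal sites.

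By consensus, 335 of the 368 sites had H3K9ac in both genotypes, 15 (4.08%) in WT alone, 5 (1.36%) in KO alone and 13 in neither. Among all 11226 merged H3K4me3 regions with consensus in both genotypes, H3K9ac was in WT alone at 2.13% and in KO alone at 0.508%. In 7 of the 15 neither KO library had an H3K9ac peak, and no site was without one in both WT libraries while holding KO consensus H3K9ac. These 7 sites were picked out after their values were seen. They included an intron of *Mlana*, which encodes a melanocyte antigen (chr19:29707801-29708405, H3K9ac 6.72 and 4.96 in WT and H3K4me3 8.35, 4.11, 3.93 and 5.23 in WT R1, WT R2, KO R1 and KO R2), and an intergenic site whose nearest protein-coding gene was *Ets1* (chr9:32940201-32940817, H3K9ac 3.33 and 6.07 in WT and H3K4me3 5.61, 6.59, 3.46 and 3.98). The others lay nearest to *Gm8251*, *Shq1*, *Ryr1*, *Zfp960* and *Adra2a*. H3K9ac enrichment at the 7 sites in WT ranged from 2.45 to 6.72.

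Distal regions were poorer in CpG than proximal regions. The ratio of observed to expected CpG had a median of 0.483 in WT and 0.491 in KO, against 0.701 and 0.712 at proximal regions. With CpG-rich defined as a length of at least 200 bp, a GC content of at least 50% and a ratio of at least 0.6, 155 WT (26.2%, 22.8 to 29.9) and 179 KO (26.3%, 23.1 to 29.7) distal regions were CpG-rich, against 68.9% and 70.4% of proximal regions. CpG-rich distal regions were shared with the other genotype more often than the rest, at 76.1% against 59.7% in WT and 70.4% against 52.6% in KO, which is given without a test. H3K9ac went the other way in WT, overlapping 80.6% (73.7 to 86.1) of CpG-rich and 94.3% (91.7 to 96.1) of other distal regions. In KO it overlapped 79.3% (72.8 to 84.6) and 85.7% (82.3 to 88.5).

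**Figure D4:**
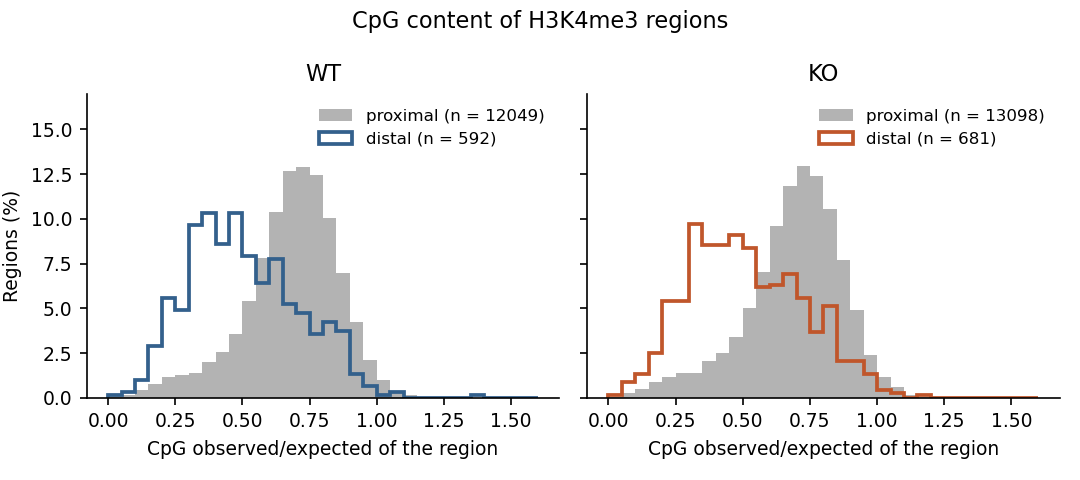
Distribution of the observed to expected CpG ratio (x axis) as a percentage of regions per bin of 0.05 (y axis), for distal (outline) and TSS-proximal (grey) H3K4me3 consensus regions of WT and KO. The distal regions centre near 0.483 in WT and 0.491 in KO and spread into the range of the proximal regions, whose medians are 0.701 and 0.712.

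Short motif letters were rare in the 200 bases around the summit, searched on both strands. The Runx letters TGTGGTTT were found in 11 WT (1.86%) and 7 KO (1.03%) distal regions, against 0.498% and 0.466% of proximal regions. The PU.1 letters AGAGGAAGT were in 4 and 1, against 0.224% and 0.214% of proximal regions, and the CTCF letters AGGNGGCGC in 7 (1.18%) and 8 (1.17%) against 2.96% and 2.75%. The CRE letters TGACGTCA were in 1 WT and 3 KO regions (0.307% and 0.428% of proximal regions), the NRF1 letters GCGCATGCG in 1 each (0.290% and 0.359%) and the C/EBP letters TTGCGCAA in 0 (0.0664% and 0.0611%). None of these words contains another, and the counts describe the windows alone.

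A second annotation, RefSeq GRCm38.p6, placed a transcript start within 1 kb of 84 WT (14.2%) and 106 KO (15.6%) distal regions. Most were predicted models, and curated transcripts started near 13 WT and 20 KO regions. RefSeq biological-region enhancers overlapped 10 and 14. Neither a transcript start nor a tRNA gene of RefSeq lay within 1 kb of 479 WT (80.9%) and 542 KO (79.6%) regions.

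Some distal sites lay at tRNA genes. tRNA genes are read by RNA polymerase III, and GENCODE M21 as used here supplied no TSS for them. A RefSeq tRNA gene lay within 1 kb of 39 WT (6.59%, 4.86 to 8.88) and 44 KO (6.46%, 4.85 to 8.56) distal regions, against 0.564% and 0.588% of proximal regions. Merged, these were 45 sites with 75 of the 403 tRNA genes in the annotation, for 18 amino acids, and 44 of the 45 sites were intergenic. Leucine tRNA genes were the most frequent, with 10 of 25 in the annotation near a distal site. Chromosome 13, which carries a large tRNA gene cluster, held 13 of the 45 sites. A further 83 tRNA genes in WT and 96 in KO had proximal H3K4me3 within 1 kb.

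The tRNA gene at the strongest of these sites is printed to show what lay beside the H3K4me3 summit, from GRCm38.p6 and on the strand of the gene. Capitals mark the letters GTTCGANNC of the internal B box, which binds the polymerase III factor TFIIIC.
n-TEttc6 (glutamic acid), chr14:76152774-76152845, plus strand: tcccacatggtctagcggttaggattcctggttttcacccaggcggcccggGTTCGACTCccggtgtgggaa
The B box letters were found in 250 of the 403 tRNA genes (62.0%), and in the summit windows of 3 WT (0.507%) and 4 KO (0.587%) distal regions, none of them near a tRNA gene. At proximal summits they were found in 1.34% and 1.25%.

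The H3K4me3 summits sat beside the tRNA genes and not over them. Of the 45 sites, 39 had the summit within 500 bp of the start of the nearest tRNA gene but 1 within 100 bp, with 29 upstream and 16 downstream and a median distance of 336 bp. The site itself spanned a tRNA gene in 33 cases. The n-TEttc6 site, near *Nufip1*, had its summit 343 bp upstream of the gene and H3K4me3 enrichments of 7.05 and 7.92 in WT and 8.50 and 13.2 in KO. The site at n-TPcgg3 had 10.4 and 6.72 in WT and 5.29 and 6.50 in KO. Both KO libraries exceeded both WT libraries at the n-TEttc6 site and lay below both at the n-TPcgg3 site. The genotypes overlapped at the n-TEctc13 site (7.90 and 5.94 in WT, 6.64 and 7.70 in KO). They also overlapped at the n-TTtgt3 site (10.03 and 5.91 in WT, 6.96 and 8.28 in KO). tRNA genes are near-identical copies, and reads that map to several of them are placed uncertainly, and the part of this in the gap over the genes was not tested.

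**Figure D5:**
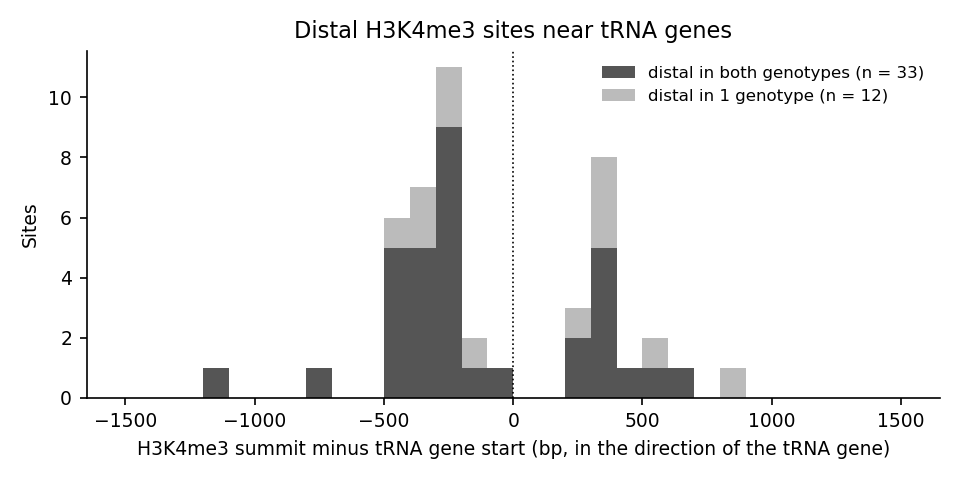
Number of distal H3K4me3 sites (y axis) by the distance of the summit from the start of the nearest tRNA gene (x axis, in bp, negative upstream in the direction of the tRNA gene), with 33 sites distal in both genotypes in dark grey and 12 in 1 genotype in light grey. Summits fall 60 to 1124 bp upstream or 259 to 823 bp downstream.

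Of the 45 tRNA sites, 33 (73.3%, 59.0 to 84.0) were distal in both genotypes, against 57 of 110 other sites near a RefSeq transcript start (51.8%), 124 of 344 other gene body sites (36.0%) and 154 of 381 other intergenic sites (40.4%). H3K9ac overlapped 35 of 37 tRNA sites with WT consensus H3K4me3 (94.6%) and 35 of 41 with KO consensus (85.4%). H3K4me1 R2 overlapped 2 (5.41%, 1.495 to 17.7) and 12 (29.3%, 17.6 to 44.5), against 20.4% and 49.8% of sites with neither a tRNA gene nor a RefSeq transcript start. These are shares of sites within single groups and were not tested over libraries.

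Most distal sites had a gene with H3K4me3 at a TSS nearest to them. The nearest protein-coding gene carried H3K4me3 at a TSS for 661 of 880 sites (75.1%, 72.2 to 77.9), at a median distance of 19736.5 bp. Of all 21938 protein-coding genes, 11348 carried H3K4me3 at a TSS, and the share at sites was not tested against this base. In all, 748 genes were nearest to a site, of which 650 had 1 site, 75 had 2, 15 had 3, 7 had 4 and 1 had 7. These 748 were 3.41% of 21938 protein-coding genes, and 557 of those with H3K4me3 at a TSS were 4.91% of 11348. Genes of the hematopoietic and leukemia lists were the nearest gene of 19 sites, through 15 of 103 listed genes (14.6%). Genes with large flanking intervals are more likely to be nearest to a site, and the excess over the background was not tested.

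Of 23 myeloid transcription factors, 4 were nearest to a site. The *Stat3* site lay in the first intron (chr11:100931265-100931986) with H3K4me3 enrichments of 3.88 and 8.85 in WT and 6.36 and 3.69 in KO, so the genotypes overlapped. *Fos*, an immediate early gene, had a site 11999.5 bp away (chr12:85486089-85487732) with 5.53 and 7.27 in WT and 7.11 and 6.00 in KO, and *Klf4*, a monocyte differentiation factor, one 118953 bp away with 7.02 and 4.74 in WT and 4.25 and 2.68 in KO. Of these, the *Klf4* site alone was lower in both KO libraries than in both WT libraries. The site of *Egr1*, another immediate early gene, was a KO consensus region, with 4.34 in WT R1, no peak in WT R2 and 5.90 and 6.57 in KO. It is a member through its KO peaks alone, so these values do not compare the genotypes. A second *Klf4* site, 581518 bp away, had 4.05 and 3.48 in WT and no KO peak, and a second *Fos* site, 17991.5 bp away, had 4.15 in WT R1, no peak in WT R2 and 2.78 and 3.75 in KO.

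Of 16 genes tied to MLL-AF9, 4 were nearest to a site. Besides *Meis1*, a site in the first intron of *Mef2c*, which encodes a transcription factor of MLL-rearranged leukemia, had H3K4me3 enrichments of 7.23 and 4.82 in WT and 5.59 and 8.01 in KO (chr13:83517801-83518913). A site in an intron of *Cdk6*, the cell cycle kinase (chr5:3489750-3490393), had 4.05 and 3.42 in WT and no KO peak, while its H3K9ac was 6.04 and 19 in WT and 4.23 and 5.90 in KO. The *Jmjd1c* site was a consensus region in WT alone, with a KO peak in R1. No listed *Hoxa* gene was the nearest gene of a site.

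Of 27 stem and progenitor transcription factors, 4 were nearest to a site: *Ikzf2* with 3 sites within one intron, *Hhex*, *Pbx3* and *Runx2*. The *Hhex* site (chr19:37448110-37448517) was a KO consensus region, with H3K4me3 of 5.92 in WT R1, no peak in WT R2 and 3.25 and 5.23 in KO. The *Ikzf2* site present in both genotypes had 3.29 and 2.53 in WT and 3.69 and 3.43 in KO. Of 19 cytokine receptors, *Cxcr4* and *Ifngr1* were nearest to 1 site each, and of 18 granule and effector genes only *Fcgr3*, whose site lay within 1 kb of the glycine tRNA gene n-TGgcc4.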

How the data were processed

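Peak lists of 16 ChIP-seq libraries were analysed (4 marks, 2 genotypes, 2 replicates). The 16 input libraries were not used here as files. Per the labels, BWA (alignment to mm10) and MACS2 (peaks of each library against input) were run by the authors, with no versions given in the sources used here. The deposited lists hold for each peak a score, the fold enrichment over input at the summit (a ratio), −log10 p, −log10 q and the summit position. They hold no read counts, so the depth behind a value is unknown, and list lengths ranged from 2725 to 78042 peaks. Intervals are 95% Wilson intervals over regions. They cover counting error only, since regions of a library are not replicates.

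From the lists, overlaps of at least 1 bp, consensus regions, TSS distances (GENCODE M21) and sequence features (RefSeq GRCm38.p6, the same build as mm10) were computed with Python 3.11.15, numpy 2.4.6 and scipy 1.17.1. The interval code was tested on simulated data against bedtools 2.31.1, and 6 of 6 checks gave equal counts. H3K9ac was compared with two-sided exact permutation tests over libraries. Both replicates of a genotype came from one pool of animals, so p-values measure a spread that may be technical. Labels that share a replicate number do not state a shared day or batch.

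The study left out 1 replicate each of H3K4me1 and H3K27ac without naming it, and replicate 2 was used here for the reason given with the results. The sites named include the 8 strongest in both genotypes (by the lowest of 4 fold enrichments) and the 4 strongest without a peak in the other genotype. They also include the 3 widest of each genotype, those next to the distance limit, *Kat2a* and sites of the gene lists. The plan was to name up to 3 sites per gene list by fold enrichment, and further list sites were added. The members, lists and rules were chosen with earlier results of these data known. The tRNA genes were examined further after the data were seen. Alternatives covered peak thresholds, overlap, replicates, list length, distance, TSS set and the replicate block. Some sequences are not reported here.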

Additional observations from a re-analysis of the deposited data

Results flagged for a closer look

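The R1 lists of H3K27ac and H3K4me1, which enter no comparison above, still overlapped some distal H3K4me3 regions. A peak of H3K27ac R1 was present at 55 of 592 distal regions in WT (9.29%), against 17.1% of proximal regions. In KO it was present at 2 of 681 (0.294%, against 0.298%). H3K4me1 R1 overlapped 10 distal regions in WT (1.69%, against 1.06% of proximal regions) and 4 in KO (0.587%, against 0.611%). These results were singled out because they are overlaps in data outside the comparisons. Whether they exceed a background level was not tested, and no level in control samples was analysed here.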

How the results depend on the processing

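Both H3K9ac differences kept their sign under every alternative run. The KO minus WT difference ranged from −8.83 to −1.96 points and the distal minus proximal difference from −47.4 to −2.81 points. No p could pass 0.05 in these designs, so the p-values say nothing of how stable either difference was. With the replicate block, in which R1 was paired with R1 and R2 with R2, the KO minus WT difference was −8.01 points (exact sign-flip permutation p = 0.5, the smallest 2 pairs allow). After the data were seen, the difference was also taken at the 368 sites distal in both genotypes (−2.72 points). With equal list lengths in every mark, which changed the set of sites, it was −1.96 points at sites distal in both genotypes. The lists hold no counts, so the depth that limits each library is unknown. Of 172 alternative values of the counts, shares and medians, 85 stayed within their limits (1.5 times a count, the 95% interval of a share or median) and 87 moved beyond them. The 27 alternatives of the H3K9ac differences were judged by sign alone.

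With 1 replicate of H3K4me3 and H3K9ac left out, distal regions numbered 1003 to 4159 in WT and 2347 to 3379 in KO, their median width was 311 to 313 bp and 258 to 298 bp, and the share shared was 21.4 to 52.1% and 21.7 to 27.5%. Gene body shares were then 45.8 to 46.9% in WT and 42.9 to 46.3% in KO. H3K9ac shares were 52.2 to 67.6% in WT and 26.7 to 49.9% in KO, H3K27ac shares 32.2 to 41.6% and 26.1 to 44.3%, and H3K4me1 shares 8.67 to 14.4% and 16.4 to 28.4%. KO minus WT H3K9ac was −8.21 to −3.71 points, and distal minus proximal −47.4 to −33.3 points. With the union of replicates, counts were 4498 (WT) and 4966 (KO), widths 308 and 264 bp, shared 29.5 and 27.3%, H3K9ac 55.2 and 31.9%, H3K27ac 30.2 and 27.1%, H3K4me1 13.96 and 19.6%, and WT gene body 47.1%.

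With q of at most 0.01, counts were 392 (WT) and 453 (KO), widths 793 and 677 bp and H3K4me1 1.79 and 28.3%, and in KO gene body was 36.2%, H3K9ac 80.8% and H3K27ac 74.0%. H3K4me1 was 7.04% (WT) and 36.1% (KO) with q of at most 0.05, and 12.1 and 26.7% with a 50% overlap. With equal list lengths the KO count was 432, widths 784 and 686.5 bp and shared 56.1 and 61.6%, and in KO gene body was 35.4%, H3K9ac 87.5%, H3K27ac 70.6% and H3K4me1 28.01%. With the consensus of both replicates of H3K27ac and H3K4me1, H3K27ac was 8.61% (WT) and 0.587% (KO) and H3K4me1 0.507 and 0.881%.

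With the outermost TSS of each gene alone, counts were 1368 (WT) and 1517 (KO), widths 859 and 721 bp, shared 75.4 and 70.3%, gene body 74.9 and 73.0%, H3K9ac 93.0 and 87.7% and H3K27ac 69.8 and 82.1%. With protein-coding TSS alone, counts were 997 and 1139, widths 782 and 668 bp, shared 71.1 and 64.2% and gene body 52.8 and 50.6%. A distance of 10000 bp left 373 in WT, and 2500 bp gave a WT gene body share of 47.6%. Measuring from the region edge moved no value beyond its limit.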
